A study of Homo sapiens with 8 samples.

Results

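The genes of fatty acid oxidation and ketone metabolism were examined in ribosome profiling libraries of METTL5-WT and METTL5-KO cells. The 32 genes were chosen by name for their known roles in these pathways, with earlier results of these data known, and all 32 were found among the 11244 genes of the table of translation efficiency (TE) and among the 60718 genes of the table of input counts. Of these, 22 encode mitochondrial proteins, 5 encode peroxisomal proteins, and 5 were counted in neither organelle (the 4 long-chain acyl-CoA synthetases and the regulator PPARA).

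Cells break down fatty acids by cutting off acetyl-CoA units in repeated cycles of oxidation, hydration, oxidation and thiolysis. Long chains are first activated to acyl-CoA, carried into mitochondria by the carnitine shuttle and oxidized there, while peroxisomes shorten very long and branched chains before handing them over. The liver can turn the resulting acetyl-CoA into ketone bodies, which other tissues burn as fuel.

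METTL5 is the enzyme that places N6-methyladenosine on 18S ribosomal RNA, and the design asked which messages change in ribosome occupancy, relative to their RNA level, once it is lost. The 8 libraries came from 4 lysates, 2 METTL5-WT and 2 METTL5-KO, each giving an input library of total RNA and a library of ribosome-protected fragments (RPF). All cells were labelled HepG2, an established line from a human liver tumor, and all received cycloheximide (100 µg/mL for 7 minutes), a drug that stalls elongating ribosomes. METTL5-KO cells were made with CRISPR-Cas9 and paired guide RNAs that cut out part of the gene. Lines of both genotypes were grown from single isolated clones. No source used here says which clone gave which replicate, so clone and genotype cannot be told apart, and p-values measure only the spread between these lysates.

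Input libraries held 10710226 to 15307257 counts. RPF libraries held 3970779 and 4592443 reads in METTL5-WT against 8626705 and 9255921 in METTL5-KO, so low genes were least precise in METTL5-WT RPF. METTL5 itself, which checks the labels, had 490 and 542 input counts in METTL5-WT against 208 and 151 in METTL5-KO, and its RPF reads were 158 and 226 against 41 and 21. The cell type label was not borne out by liver genes: of 8 hepatocyte markers, 3 (TTR, SERPINA1 and FGB) had no input count in any library, ALB (albumin) had 0, 0, 0 and 1 counts and HNF4A had 0, 1, 1 and 0. The 8 markers summed to 0.28 to 0.784 CPM (counts scaled to a library total of 1000000). Markers of 3 other cell types were also read: 4 fibroblast genes summed to 262 to 342 CPM, nearly all from COL3A1 and COL1A1 with COL1A2 at 0 or 1 count, 3 endothelial genes to 0.653 to 1.25, and 3 leukocyte genes to 0 to 0.158. The cells are therefore called the cells labelled HepG2. What this means for a pathway known from liver was not tested.

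In the following, input values are raw counts per gene, and RPF values are normalized reads, that is reads scaled by a single factor per library so that libraries of different depth can be compared. TE is the normalized RPF value divided by the normalized input value of the same lysate. Input was tested with edgeR's quasi-likelihood test, and RPF and TE with limma on log2(value + 1), which understates the change of low genes. A gene was called at a Benjamini-Hochberg adjusted p-value under 0.05 over all genes tested. All 32 genes passed the filters on low values.

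Most of the called changes lay in ribosome occupancy. In RPF, 12 of the 32 genes rose and 2 fell in METTL5-KO, among them the acyl-CoA synthetase ACSL1, the electron carrier ETFB, the unsaturated fatty acid enzymes DECR1, ECI1 and ECI2, the thiolase ACAT1 and the peroxisomal genes ABCD3 and HSD17B4. In input RNA, 4 rose (ACSL1, CRAT, ECI1 and ETFB) and 1 fell (BDH1). In TE, 3 rose (ACAT1, ECI2 and ACSL3) and 0 fell. Over all genes tested, 29.3% were called in RPF, 16.2% as higher and 13.1% as lower in METTL5-KO; in input 22.4% were called, 11.8% higher and 10.6% lower; and in TE 4.79%, 2.7% higher and 2.08% lower. The 5 calls of 32 in input thus lay below the background share, and the 14 of 32 in RPF above it. The input count moved with single libraries, from 5 called members to 2 without METTL5-WT replicate 1, 3 without METTL5-WT replicate 2 and 13 without METTL5-KO replicate 1.

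**Figure D1:**
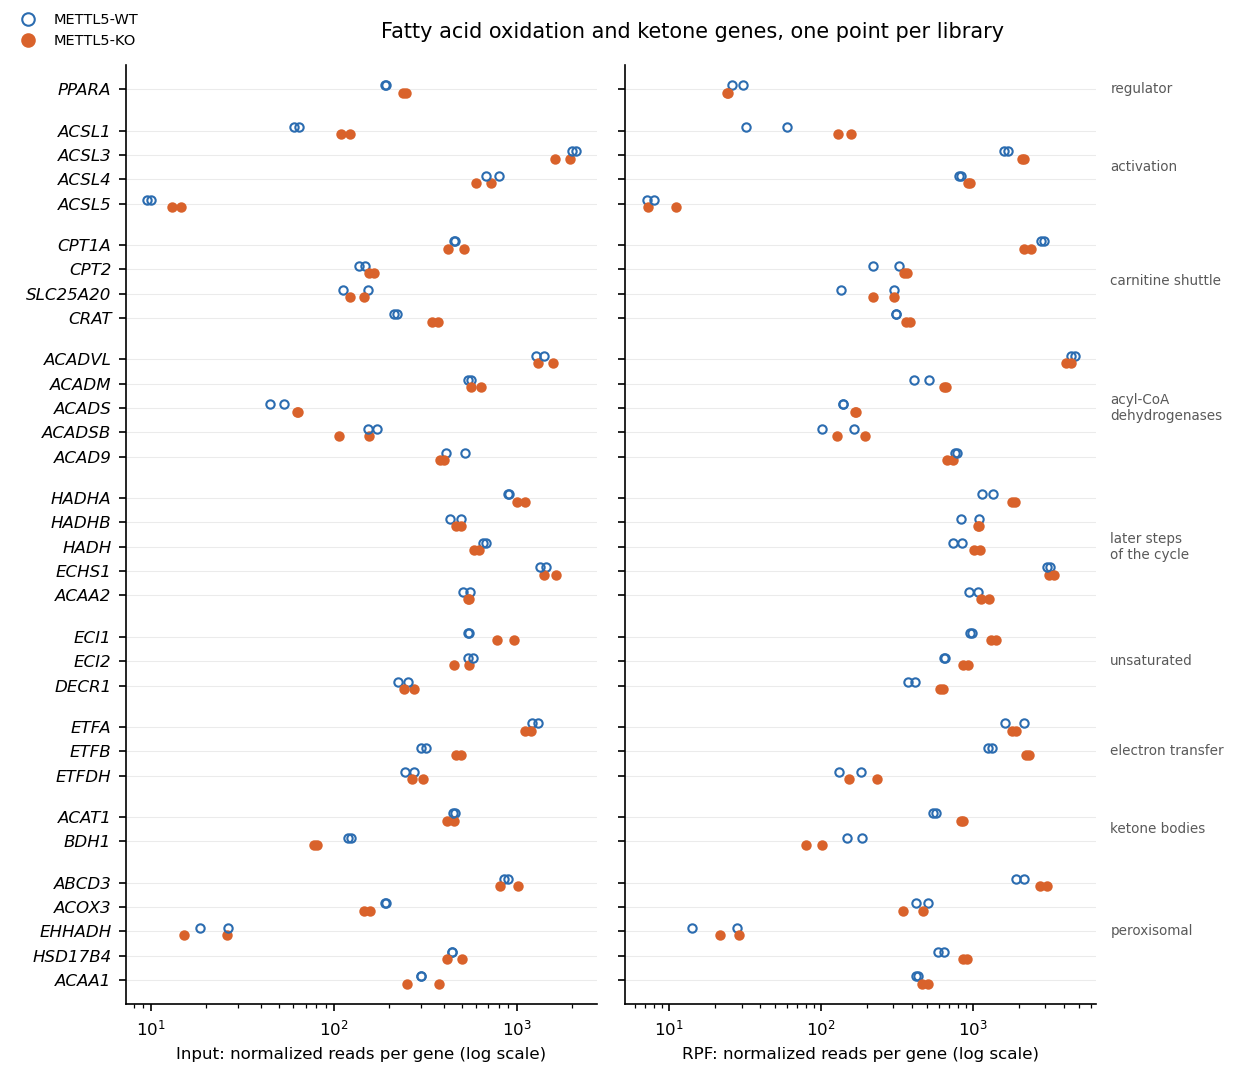
Normalized reads of each gene in the 4 input libraries (left) and the 4 RPF libraries (right), on log scales, with open circles for METTL5-WT and filled circles for METTL5-KO. In RPF, the METTL5-KO points of ACSL1 (129 and 157) lie to the right of the METTL5-WT points (59.4 and 32.1), and those of BDH1 lie to the left.

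Of the 12 genes that rose in RPF, 3 (ACSL1, ECI1 and ETFB) also rose in input and 9 were not called in input. BDH1 fell in both. CRAT rose in input and was not called in RPF, and CPT1A fell in RPF and was not called in input. In all, 15 genes were called in at least 1 readout and 17 in none. The edgeR test on the recovered RPF reads called the same 14 genes in RPF, where it called 27.8% of all genes, and the same 3 in TE, where it called 6.81%.

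**Figure D2:**
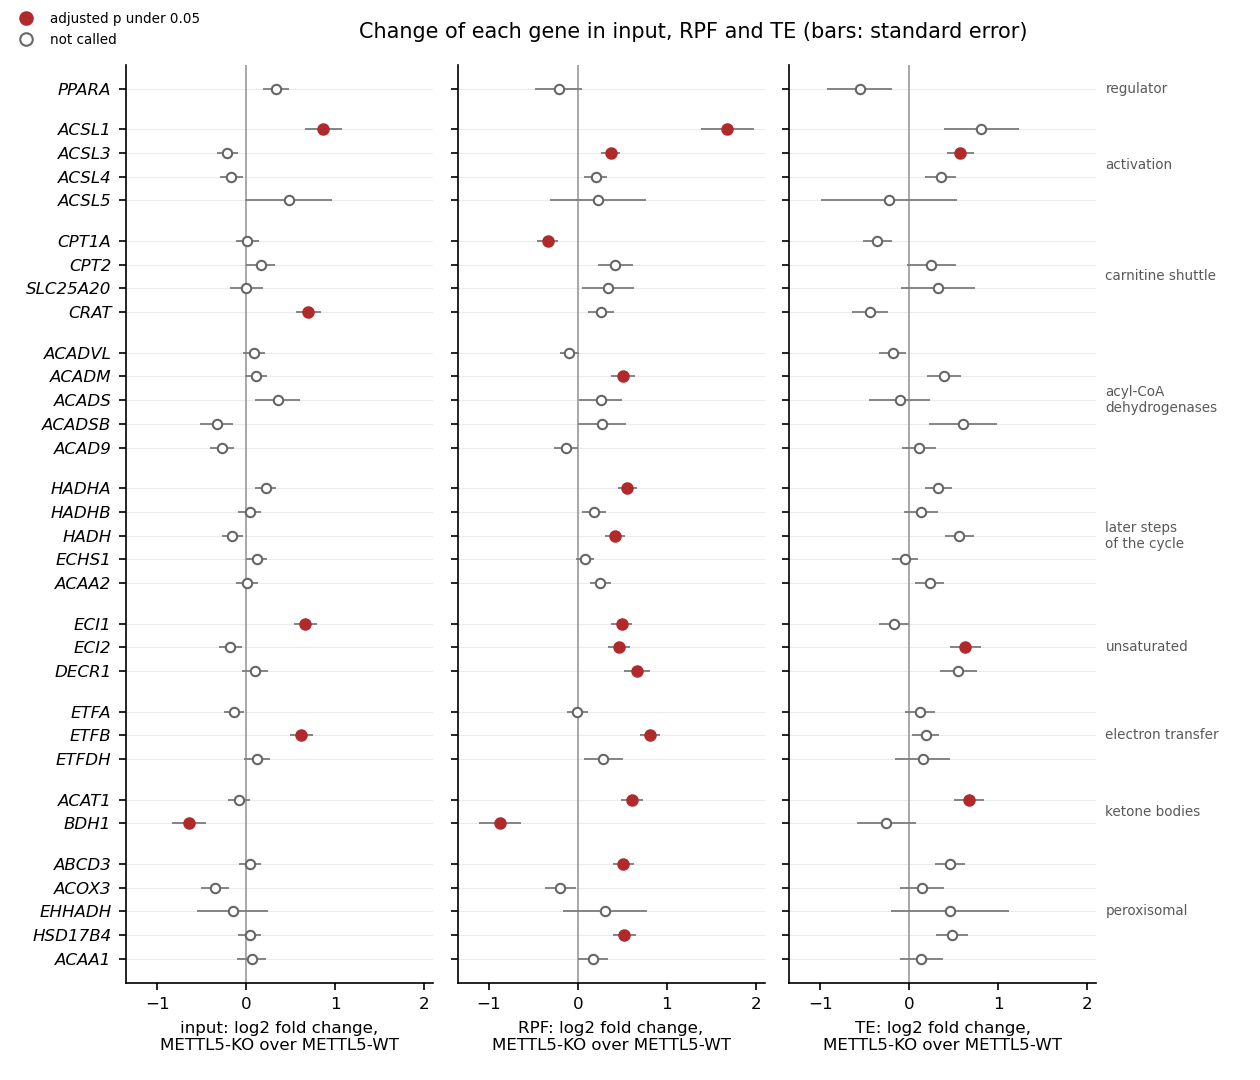
Log2 fold change of METTL5-KO over METTL5-WT for each gene in input, RPF and TE, with bars for the standard error and filled points for adjusted p-values under 0.05. In RPF 12 genes are called to the right of 0 and 2 to the left, while in TE 3 are called, all to the right.

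Before fatty acids can be oxidized they are joined to coenzyme A by the long-chain acyl-CoA synthetases, of which 4 were measured. ACSL1, the synthetase best known from liver, fat and muscle, had 89 and 91 input counts in METTL5-WT against 202 and 218 in METTL5-KO. In RPF it had 59.4 and 32.1 normalized reads in METTL5-WT against 129 and 157 in METTL5-KO, from 25 and 16 reads against 107 and 141. Both METTL5-KO libraries lay above both METTL5-WT libraries in each readout. ACSL1 rose 1.83-fold in input (log2 0.87 ± 0.21 SE, edgeR adjusted p = 0.00334) and 3.21-fold in RPF (log2 1.68 ± 0.30, limma adjusted p = 0.000471), the largest RPF change of the 32 genes. Its TE was 0.98 and 0.496 in METTL5-WT against 1.06 and 1.44 in METTL5-KO, which was not called (log2 0.81 ± 0.42, limma adjusted p = 0.263).

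ACSL3, which is found on the endoplasmic reticulum and lipid droplets, followed another course. Input held 3084 and 2821 counts of it in METTL5-WT against 3258 and 3222 in METTL5-KO, which after scaling for depth was a log2 change of -0.21 ± 0.12 (edgeR adjusted p = 0.223). Its footprints, as normalized reads, numbered 1601 and 1707 in METTL5-WT against 2173 and 2097 in METTL5-KO. RPF of ACSL3 thus rose 1.29-fold without a called change of its RNA (log2 0.37 ± 0.11, limma adjusted p = 0.0153). ACSL4, which prefers arachidonate, had normalized RPF reads of 808 and 830 against 958 and 924 and was not called (log2 0.20 ± 0.12). ACSL5 was close to the detection limit, with 14 to 26 input counts and 3 to 10 RPF reads per library. Without the first METTL5-WT library, the input call of ACSL1 (log2 0.83, edgeR adjusted p = 0.0514) and the RPF call of ACSL3 (log2 0.32, limma adjusted p = 0.127) were lost.

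ACSL3 was far more abundant than ACSL1 in RPF. Per kilobase of coding sequence, ACSL1 stood at 0.0383 and 0.0194 of the RPF level of ACSL3 in METTL5-WT and at 0.0612 and 0.0773 in METTL5-KO. These ratios did not overlap between genotypes, and an exact two-sided permutation test of 2 against 2 gave p = 0.333, the smallest value this design allows. The 4 synthetases together took 262 and 280 RPM in RPF (reads scaled to a total of 1000000 in the TE table) in METTL5-WT against 314 and 309 in METTL5-KO. RPM is a share of the library total, a different scaling from that of the normalized reads used in the RPF tests.

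The carnitine shuttle carries activated long chains across the mitochondrial membranes. CPT1A, the outer-membrane transferase that sets the pace of long-chain oxidation, was the member whose normalized RPF reads fell with no called change of RNA. It had 2955 and 2816 of them in METTL5-WT against 2411 and 2163 in METTL5-KO. Input counts of CPT1A were 679 and 636 against 851 and 835, a log2 change of 0.01 ± 0.13 after scaling (edgeR adjusted p = 0.962). CPT1A fell 1.26-fold in RPF (log2 -0.34 ± 0.12, limma adjusted p = 0.0368). This call was lost without METTL5-WT replicate 1 (adjusted p = 0.179), METTL5-WT replicate 2 (0.0947) or METTL5-KO replicate 2 (0.125), and was kept without METTL5-KO replicate 1 and in edgeR (adjusted p = 0.0182).

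CRAT, the carnitine acetyltransferase that buffers acetyl-CoA, changed in the other readout. Input held 327 and 300 counts of it in METTL5-WT against 571 and 735 in METTL5-KO, a 1.62-fold rise (log2 0.70 ± 0.14, edgeR adjusted p = 0.000728). Its normalized RPF reads were 311 and 313 against 386 and 365, a difference that was not called (log2 0.26 ± 0.15, limma adjusted p = 0.188). CPT2, the inner-membrane transferase, and SLC25A20, the carnitine-acylcarnitine carrier, were not called in any readout, and the METTL5-WT RPF reads of SLC25A20 themselves differed widely, with 128 and 68. Summed over the 4 shuttle genes, RPF came to 413 and 378 RPM in METTL5-WT against 324 and 310 in METTL5-KO, while input came to 132 and 134 RPM in METTL5-WT against 160 and 151. The lower sum in RPF came from CPT1A, which held most of these footprints. The other 3 genes had RPF log2 changes above 0 that were not called, 0.42 ± 0.19 in CPT2 (325 and 221 normalized reads against 350 and 369), 0.34 ± 0.29 in SLC25A20 and 0.26 ± 0.15 in CRAT.

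**Figure D3:**
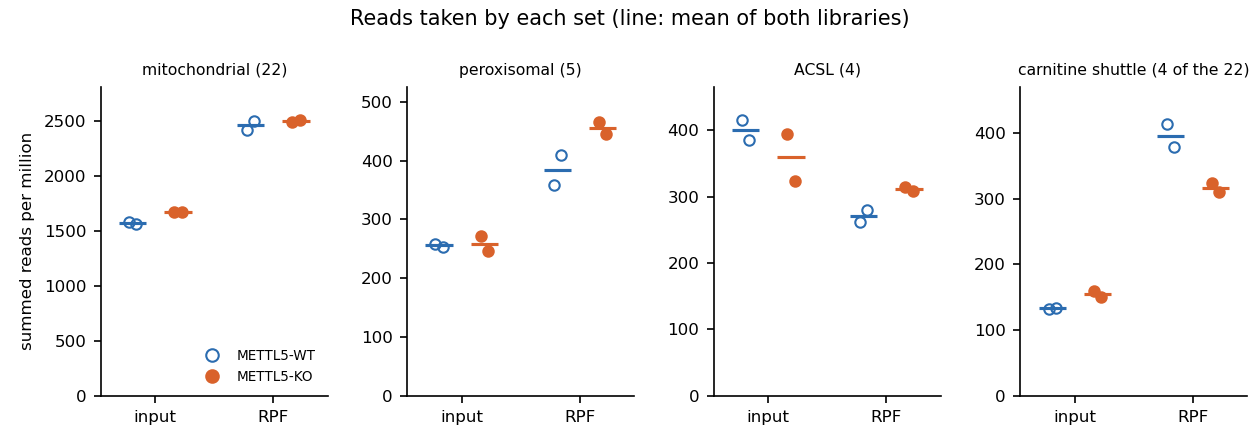
Reads scaled to a library total of 1000000 (RPM) and summed over the 22 mitochondrial, 5 peroxisomal, 4 acyl-CoA synthetase and 4 carnitine shuttle genes, in input and RPF, with a point per library and a line at the mean. In RPF the 4 shuttle genes, mostly CPT1A, took 413 and 378 RPM in METTL5-WT against 324 and 310 in METTL5-KO. The whole mitochondrial set took between 2423 and 2507 RPM. RPM is a share of the library total and not the scale on which RPF was tested.

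The acyl-CoA dehydrogenases perform the first oxidation of the mitochondrial cycle, each for its own chain length. ACADM, the medium-chain enzyme, had normalized RPF reads of 409 and 515 in METTL5-WT against 643 and 665 in METTL5-KO and rose 1.42-fold (log2 0.51 ± 0.13, limma adjusted p = 0.00856). Its RNA was not called as changed (821 and 766 input counts against 1059 and 1123, log2 0.11 ± 0.12, edgeR adjusted p = 0.569). The RPF call of ACADM was lost without METTL5-WT replicate 1 (log2 0.34, adjusted p = 0.15), METTL5-KO replicate 1 (0.0525) or METTL5-KO replicate 2 (0.0697). ACADVL, which takes the longest chains, was among the most translated members, with 4393 and 4679 normalized RPF reads in METTL5-WT against 4092 and 4409 in METTL5-KO, overlapping ranges. ACADS (short chains), ACADSB (branched short chains) and ACAD9 (also an assembly factor of respiratory complex I) were not called in any readout, with RPF log2 changes of 0.26 ± 0.24, 0.27 ± 0.27 and -0.14 ± 0.13.

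The remaining steps of the cycle are shared between single enzymes and the mitochondrial trifunctional protein, a complex of HADHA and HADHB subunits in equal number. HADHA had normalized RPF reads of 1150 and 1358 in METTL5-WT against 1884 and 1795 in METTL5-KO, and rose 1.47-fold (log2 0.56 ± 0.11, limma adjusted p = 0.00117). HADHB had 1100 and 828 against 1096 and 1077, which overlapped (log2 0.19 ± 0.14, limma adjusted p = 0.324). Per coding kilobase, the HADHA to HADHB ratio of RPF levels was 0.65 and 1.02 in METTL5-WT against 1.07 and 1.04 in METTL5-KO. METTL5-WT replicate 1 stood apart from the other 3 in this ratio, so the partners differed in their calls without a clear difference in their ratio (exact two-sided permutation p = 0.333, the smallest possible). HADHA and HADHB lie head to head on opposite strands with annotated starts 1502 bases apart. Their spans overlap between these starts, and only there did the separation of input reads depend on strand alone.

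HADH, the short-chain hydroxyacyl-CoA dehydrogenase, had normalized RPF reads of 848 and 740 in METTL5-WT against 1106 and 1016 in METTL5-KO, with input counts of 966 and 951 against 1035 and 1165. It rose 1.34-fold in RPF (log2 0.42 ± 0.12, limma adjusted p = 0.0115), a call lost without METTL5-WT replicate 2 (adjusted p = 0.159) or METTL5-KO replicate 1 (0.0899). ECHS1, the short-chain enoyl-CoA hydratase, and ACAA2, the mitochondrial thiolase, were not called, with RPF log2 changes of 0.08 ± 0.10 and 0.25 ± 0.12.

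Unsaturated fatty acids need auxiliary enzymes that move or remove their double bonds, and the 3 members among them rose in RPF. DECR1, the dienoyl-CoA reductase, had normalized RPF reads of 413 and 371 in METTL5-WT against 631 and 610 in METTL5-KO and rose 1.58-fold (log2 0.66 ± 0.15, limma adjusted p = 0.00274). ECI1, the enoyl-CoA isomerase of mitochondria, had 979 and 953 against 1312 and 1408 (log2 0.49 ± 0.12, adjusted p = 0.00489). The input counts of ECI1 also rose, from 810 and 760 to 1291 and 1927 (log2 0.67 ± 0.13, edgeR adjusted p = 0.000448).

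Of the auxiliary enzymes outside the 32 genes, ECH1, DECR2 and PECR were not called in RPF, with log2 changes of 0.05 ± 0.13, -0.02 ± 0.20 and 0.38 ± 0.28.

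ECI2, an isomerase with forms in both mitochondria and peroxisomes, had 651 and 644 normalized RPF reads in METTL5-WT against 923 and 862 in METTL5-KO (log2 0.46 ± 0.12, limma adjusted p = 0.0095). The input counts of ECI2 were 797 and 815 against 906 and 908, a log2 change of -0.18 ± 0.13 that was not called. ECI1 and ECI2 thus reached a similar rise in RPF in the main fit, ECI1 with more RNA and ECI2 without a called change of RNA. This similarity depended on the processing. Coding GC content was 65.5% in ECI1 and 45.4% in ECI2. With each library's trend with GC content removed, the RPF log2 changes were 0.65 for ECI1 and 0.35 for ECI2. The RPF calls of DECR1 and ECI1 were kept without any single library, and that of ECI2 was lost without METTL5-WT replicate 2 (adjusted p = 0.0527) or METTL5-KO replicate 1 (0.0541).

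Electrons from the acyl-CoA dehydrogenases pass through the flavoprotein ETF, a dimer of ETFA and ETFB, to the membrane enzyme ETFDH. ETFB had 470 and 424 input counts in METTL5-WT against 774 and 989 in METTL5-KO. Its normalized RPF reads were 1330 and 1259 against 2340 and 2218. ETFB rose 1.54-fold in input (log2 0.62 ± 0.13, edgeR adjusted p = 0.00112) and 1.76-fold in RPF (log2 0.81 ± 0.11, limma adjusted p = 4.03e-05), the lowest RPF p-value of the 32 genes.

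Its partner ETFA did not move with it. ETFA had 1634 and 2152 normalized RPF reads in METTL5-WT against 1819 and 1922 in METTL5-KO (log2 -0.00 ± 0.12) and a log2 input change of -0.14 ± 0.11. The ETFA to ETFB ratio of RPF per coding kilobase was 0.942 and 1.31 in METTL5-WT against 0.596 and 0.664 in METTL5-KO, with the 2 subunits near parity in METTL5-WT and ETFB ahead in METTL5-KO. The ratio of input counts per kilobase of exon moved the same way, from 4.9 and 5.57 to 3.3 and 2.9. Neither pair of ranges overlapped (exact two-sided permutation p = 0.333 for each, the smallest possible). ETFDH had 131 and 185 against 235 and 153 normalized RPF reads and was not called.

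In input, ETFB and ECI1 stood among neighbours that were also somewhat higher. Up to 20 tested genes were taken on each side. The 40 around ETFB on chromosome 19 had a median input log2 change of 0.31, with 9 called higher and 2 lower. The 40 around ECI1 on chromosome 16 had a median of 0.25, with 8 higher and 1 lower. Around CRAT (chromosome 9) and ACSL1 (chromosome 4) the medians were 0.09 and -0.05. Members not called in input could have such neighbours too. Around CPT1A the median was 0.24, with 10 higher and 1 lower, and around ETFDH 0.02, with 12 higher and 3 lower. The part of the neighbourhood in the rises of ETFB, ECI1, CRAT and ACSL1 was not tested. Without METTL5-WT replicate 1 or 2, the input call of ETFB was lost (edgeR adjusted p = 0.0511 and 0.0946), while those of CRAT and ECI1 were kept without any single library.

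Of the ketone body genes, the 2 measured members went in opposite directions. ACAT1, the mitochondrial thiolase that makes and splits acetoacetyl-CoA, had normalized RPF reads of 573 and 545 in METTL5-WT against 865 and 841 in METTL5-KO, a 1.52-fold rise (log2 0.61 ± 0.12, limma adjusted p = 0.00115). The input counts of ACAT1 were 674 and 631 against 750 and 829 (log2 -0.08 ± 0.13, not called). BDH1, which interconverts acetoacetate and 3-hydroxybutyrate, had 183 and 169 input counts in METTL5-WT against 134 and 155 in METTL5-KO. Its RPF reads, scaled for depth, were 147 and 187 against 79.6 and 101.

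BDH1 fell 1.56-fold in input (log2 -0.64 ± 0.19, edgeR adjusted p = 0.0189) and 1.83-fold in RPF (log2 -0.88 ± 0.24, limma adjusted p = 0.0104). It was the only member that fell in both. Its input call was lost without METTL5-WT replicate 1 (adjusted p = 0.163) or 2 (0.116) and in DESeq2 (0.103), and its RPF call without METTL5-WT replicate 2 (0.0794) or METTL5-KO replicate 1 (0.118). The 28 tested genes around BDH1 on chromosome 3 had a median input log2 change of -0.17, with 4 called lower and 1 higher.

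Peroxisomal oxidation was represented by 5 genes, of which 2 rose in RPF and 0 were called in input or TE. ABCD3, which imports branched and dicarboxylic acyl-CoA into the peroxisome, had normalized RPF reads of 1929 and 2172 in METTL5-WT against 3070 and 2773 in METTL5-KO, a 1.43-fold rise (log2 0.51 ± 0.12, limma adjusted p = 0.00366). HSD17B4, the bifunctional hydratase and dehydrogenase, had 587 and 646 against 910 and 860, a 1.44-fold rise (log2 0.52 ± 0.13, limma adjusted p = 0.00548) that was lost without METTL5-WT replicate 1 (adjusted p = 0.0554). In both genes the input ranges overlapped between genotypes.

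ACOX3, an oxidase of branched chains, had 423 and 503 normalized RPF reads in METTL5-WT against 346 and 469 in METTL5-KO. ACAA1, the peroxisomal thiolase, had 437 and 421 against 505 and 465. EHHADH, the other bifunctional enzyme, was near the detection limit with 6 to 26 RPF reads. None of these 3 was called. The 5 genes together took 359 and 409 RPM of footprints in METTL5-WT against 467 and 445 in METTL5-KO, most of them from ABCD3, and 259 and 253 against 271 and 246 RPM in input.

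PPARA, the nuclear receptor that switches on fatty acid oxidation genes in liver, had 284 and 268 input counts in METTL5-WT against 397 and 495 in METTL5-KO, which was not called (log2 0.33 ± 0.15, edgeR adjusted p = 0.11). It had only 13 to 22 RPF reads per library. Its TE was 0.16 and 0.137 in METTL5-WT against 0.101 and 0.0987 in METTL5-KO, ranges that did not overlap (log2 -0.56 ± 0.37, limma adjusted p = 0.383).

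The members differed far more among themselves than between genotypes. The RPF level in METTL5-WT, in RPM divided by kilobases of coding sequence, was 384 ± 5.74 (SD, n = 2) for ECHS1, 247 ± 15.2 for ACADVL, 203 ± 42.6 for ETFA, 181 ± 3.94 for ETFB and 133 ± 2.3 for CPT1A. At the lower end it was 2.33 ± 0.948 for ACSL1, 2.17 ± 0.223 for PPARA, 1.05 ± 0.501 for EHHADH and 0.396 ± 0.0398 for ACSL5, so that 969-fold lay between the top and the bottom. Of the 31 pairs of neighbours in this order, 19 overlapped between their METTL5-WT libraries, ETFA and ETFB among them. In input, the order per kilobase of counted exon differed. ECHS1 was again first with 143 ± 6.18 CPM for each kilobase. ETFB stood at rank 21 with 6.27 ± 0.254 and CPT1A at rank 16 with 9.13 ± 0.127. Counted length takes in all annotated exons, 6496 bases in ETFB against 768 of coding sequence, so the input ranks also depend on this length.

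TE is a ratio of reads with no correction for length, and input reads were counted on all exons, so it was compared between genotypes and not between genes. TE of CPT1A was 6.39 and 6.23 in METTL5-WT against 4.7 and 5.16 in METTL5-KO, and that of ETFB was 4.16 and 4.18 against 5.01 and 4.47. The TE change of CPT1A did not pass the test (log2 -0.36 ± 0.16, limma adjusted p = 0.206), nor did that of CRAT, with TE of 1.4 and 1.47 against 1.12 and 0.988 (log2 -0.44 ± 0.21, adjusted p = 0.214).

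The 3 genes whose TE rose were ACAT1, ECI2 and ACSL3. TE of ACAT1 was 1.25 and 1.22 in METTL5-WT against 1.91 and 2.02 in METTL5-KO (log2 0.67 ± 0.17, limma adjusted p = 0.0338). TE of ECI2 was 1.2 and 1.11 against 1.69 and 1.89 (log2 0.63 ± 0.17, adjusted p = 0.0478), and TE of ACSL3 was 0.763 and 0.851 against 1.11 and 1.3 (log2 0.57 ± 0.15, adjusted p = 0.0411). In each, both METTL5-KO lysates lay above both METTL5-WT lysates, and the RNA was not called as changed.

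HADH had a similar size of change, with TE of 1.29 and 1.1 in METTL5-WT against 1.77 and 1.74 in METTL5-KO (log2 0.56 ± 0.16), and just missed the threshold (limma adjusted p = 0.058, edgeR 0.0522). It was called when the lysate was kept as a block (adjusted p = 0.042), which gave 4 called members and 7.06% of all genes. The 3 TE calls rested on all 8 libraries: without any lysate, 0 of the 32 genes was called by limma, and the adjusted p-values of these 3 then ranged from 0.0526 to 0.231. At an unadjusted limma p-value under 0.05, TE differed in 9 of the 32 genes. The share of all genes at that threshold was not computed, so this count cannot be read as an excess.

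**Figure D4:**
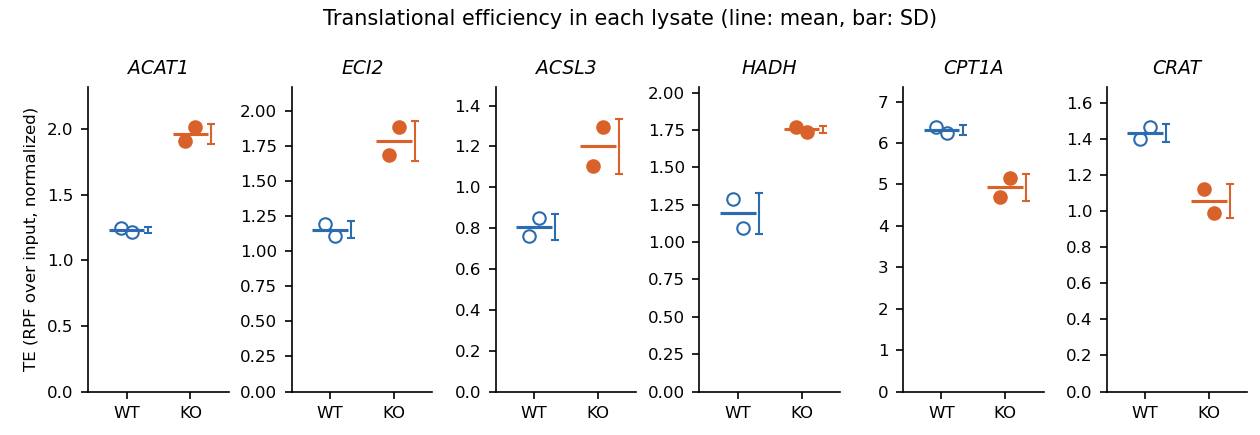
TE of 6 genes in each lysate, with axes from 0, lines at the mean and bars for the SD of 2 lysates. TE of ACAT1, ECI2, ACSL3 and HADH is higher in both METTL5-KO lysates, and that of CPT1A and CRAT is lower in both, of which the changes of ACAT1, ECI2 and ACSL3 passed the test.

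TE changes of the members moved with the base composition of their coding sequence. Across the 32 genes, the TE log2 change and the GC content of the coding sequence had a Pearson r of -0.60 and a Spearman rho of -0.64, a description over genes that share the same libraries, and across 11220 genes r was -0.41 and rho -0.47. The 16 members at or below the median GC content of 48.3% had a median TE log2 change of 0.42, and the 16 above it 0.03. ACSL3 had the lowest GC content of the 32 genes (40.5%), followed by ACADM (40.8%), and ACAT1 (44.2%) and ECI2 (45.4%) also lay in the lower part.

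With the GC trend of each library removed, these medians became 0.20 and 0.18, and 0 of the 32 genes was called in TE, against 2.66% of all genes. With the lysate as a block besides, 0 of the 32 and 4.06% of all genes were called. The TE changes were then 0.46 for ACAT1 (limma adjusted p = 0.0993), 0.44 for ECI2 (0.11) and 0.30 for ACSL3 (0.157). Whether the GC relation arose in the cells or in library preparation was not tested.

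**Figure D5:**
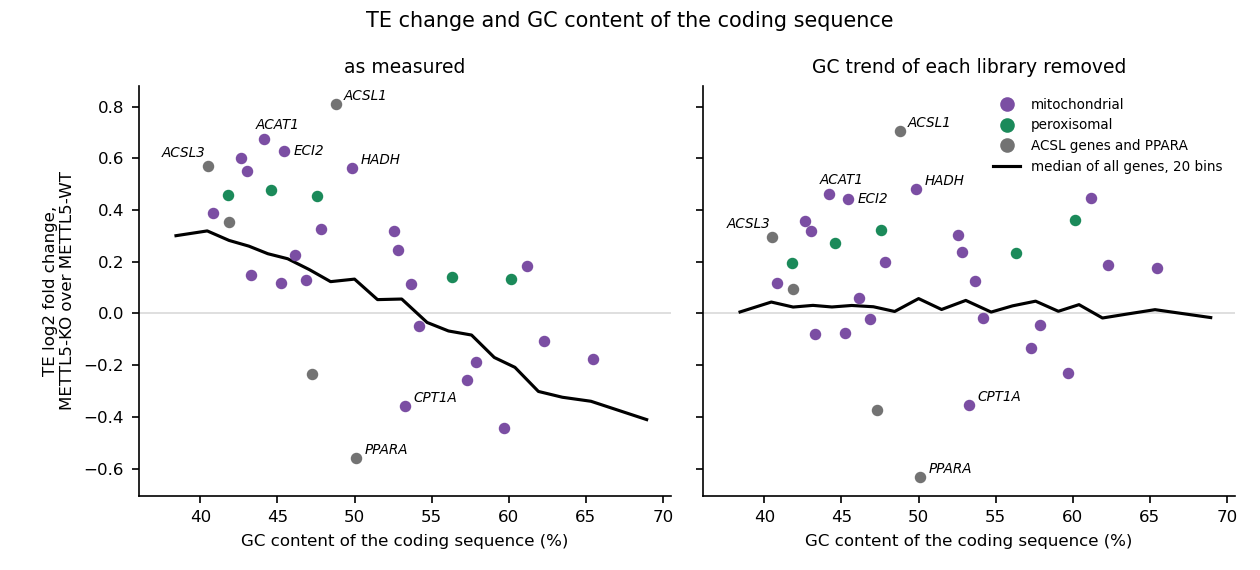
TE log2 fold change of METTL5-KO over METTL5-WT against the GC content of the coding sequence, as measured (left) and after removal of each library's GC trend (right), with a point per member and a black line at the median of all genes in 20 bins. On the left the line falls from 0.30 in the lowest bin to -0.41 in the highest, and ACSL3 and ACAT1 lie in its upper left, while on the right it stays near 0.

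Sequence around the start codon is what a scanning small ribosomal subunit reads when it chooses where to begin. It is shown for the 3 genes whose TE rose, for HADH next to them, and for CPT1A and CRAT. TE of CPT1A and CRAT was lower in both METTL5-KO lysates, as was that of PPARA, ACADVL and ECI1, whose sequences are not shown. None of these lower TE values was called. Each run is the plus-sense message from 9 bases before to 3 bases after the start codon, taken from hg38 by the canonical GENCODE 44 transcript, with the base at -3, the start codon and the base at +4 in capitals.
ACAT1 (start codon chr11:108121607-108121609, plus strand): tctgcgAccATGGct
ECI2 (chr6:4135558-4135560, minus strand): gcccaaGggATGGcg
ACSL3 (chr2:222908773-222908775, plus strand): tgagtaCttATGAat
HADH (chr4:107989933-107989935, plus strand): tgccacAccATGGcc
CPT1A (chr11:68815472-68815474, minus strand): tctctgAagATGGca
CRAT (chr9:129110507-129110509, minus strand): gcagcgAagATGTta

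The favoured context has A or G at -3 and G at +4. Of the 32 members, 18 (56.2%) had both, against 47.3% of 11123 genes of the TE table. ACSL3 was the single member with neither, a class that held 5.75% of all genes, whereas ACAT1, ECI2, HADH and CPT1A had both and CRAT had the first alone. The genes whose TE rose therefore did not share a start context. The lengths of their 5′ untranslated regions also differed, with 15 bases in ECI2, 40 in ACAT1 and 429 in ACSL3, the shortest and the longest of the 32 genes being among them.

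The mitochondrial and peroxisomal sets were then set side by side. In RPF, 8 of 22 mitochondrial genes rose and 2 fell, and 2 of 5 peroxisomal genes rose, with median log2 changes of 0.28 and 0.31 against 0.02 over all genes. In input, 3 mitochondrial genes rose and 1 fell while 0 peroxisomal genes were called, with medians of 0.06 and 0.04. In TE, 2 of 22 mitochondrial and 0 of 5 peroxisomal genes were called, with medians of 0.17 and 0.45 against 0.02 over all genes. All 5 peroxisomal genes had a TE change above 0, as did 23 of the 32 members. The share of all genes above 0 is not reported here, so these counts have no background beside them. Median coding GC content was 47.6% in the peroxisomal set, 51.2% in the mitochondrial set and 52.3% over all genes, and TE changes were higher at lower GC content.

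The peroxisomal medians in RPF and TE were the values of EHHADH itself, the gene with 6 to 26 RPF reads, whose TE log2 change was 0.45 ± 0.66. The TE median depended on the processing. It fell to 0.27 with the GC trend removed, where the mitochondrial median was 0.15, and ranged from 0.24 to 0.55 when a lysate was left out. With 5 genes and no test of the difference, the sets were not shown to differ. Leaving out the genes with products in both organelles (ECI2, CRAT, ACAA1 and HSD17B4) left the TE medians at 0.17 and 0.45, the latter again EHHADH, and turned the peroxisomal input median to -0.15.

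Further genes of these pathways were read from a list of 71, of which 58 were tested in each readout. CPT1B, the carnitine transferase of muscle, was tested in RPF and TE alone, and PPARG in input alone. In input 6 rose and 4 fell, in RPF 14 rose and 7 fell, and in TE 1 rose and 1 fell, with medians of 0.02, 0.13 and 0.02. The shares of all tested genes called higher and lower were 11.8% and 10.6% (input), 16.2% and 13.1% (RPF), 2.7% and 2.08% (TE). Only the RPF rises, 14 of 58, lay above their background share, while each of the other counts lay below its own. These differences from the background were not tested. Of the 6 regulators tested in input, 3 rose. PPARGC1A, the coactivator of mitochondrial biogenesis, had 352 and 396 input counts in METTL5-WT against 809 and 979 in METTL5-KO (log2 0.90 ± 0.13, edgeR adjusted p = 2.88e-05), and its RPF log2 change was 1.48 ± 0.16 (limma adjusted p = 4.52e-06). RXRA, the partner receptor of PPARA, rose in input (log2 0.73 ± 0.13, adjusted p = 0.000278) but had RPF values of 501 and 542 against 452 and 520, so that its TE fell by 0.84 ± 0.20 on the log2 scale (limma adjusted p = 0.0234). That TE call was lost with the GC trend removed (adjusted p = 0.106). SIRT3, the mitochondrial deacetylase, rose in input (log2 0.71 ± 0.16).

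Peroxisome genes outside the 5 members were mixed. PEX6, an ATPase that recycles the import receptor, rose in input (log2 0.99 ± 0.15), and PHYH, which begins the oxidation of phytanic acid, rose in RPF (log2 1.21 ± 0.16), whereas PEX5, the import receptor itself, fell in input (log2 -0.45 ± 0.14), as did PEX3, a membrane biogenesis factor (log2 -0.53 ± 0.18), and HACL1, a lyase of branched chains (log2 -0.50 ± 0.17). ACOT8, a peroxisomal thioesterase, had normalized RPF reads of 145 and 174 in METTL5-WT against 57.9 and 78 in METTL5-KO and fell in RPF (log2 -1.23 ± 0.25, limma adjusted p = 0.00166). PEX13, part of the import pore, had 181 and 150 against 310 and 306 and was the only further gene whose TE rose (log2 1.09 ± 0.23, limma adjusted p = 0.0137, and 0.0292 with the GC trend removed).

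Other genes of mitochondrial oxidation and transport also moved both ways. In RPF, MCEE, the methylmalonyl-CoA epimerase, rose with 16.6 and 24.1 normalized reads against 38.6 and 71.4 (log2 1.35 ± 0.36, limma adjusted p = 0.00936). ACACB, whose product malonyl-CoA inhibits CPT1, fell with 112 and 197 against 59.1 and 73.6 (log2 -1.16 ± 0.26, adjusted p = 0.00304), and so did ACAD10 (log2 -0.92 ± 0.31, adjusted p = 0.0349) and the peroxisomal transporter family member ABCD4 (log2 -0.69 ± 0.24, adjusted p = 0.0436). SLC16A1, a carrier of lactate and ketone bodies, fell in input (log2 -0.36 ± 0.12, edgeR adjusted p = 0.0258).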

How the data were processed

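Ribosome profiling had been done on cells labelled HepG2, with 2 METTL5-WT and 2 METTL5-KO lysates. The authors aligned input reads to hg38 with STAR 2.7.3a and deposited the raw count of uniquely mapped reads on the exons of each gene, assigned by strand with featureCounts. A gene broken over 3 lines was left out here. RPF reads were trimmed, size-selected, cleared of rRNA and processed with RiboToolkit. The TE table was deposited with signal values that the authors named RPKM. They were whole reads times a constant per library in 100% of values (within 0.01 reads), and their input values equalled the count table. That table lists only genes with at least 1 read in every library. The authors' TE log2 fold change and its p-value and adjusted p-value were deposited too and were not used.

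Groups were taken from the sample titles. The quasi-likelihood test of edgeR 4.0.16, with TMM scaling and filterByExpr, was run on the input counts of 14054 genes. The plan had assumed RPKM, so limma 3.58.1 (trended eBayes) was kept for RPF and TE, run on log2(value + 1) in a single model of 8 libraries (11240 genes with a mean of at least 1 per library type), TE being the interaction of genotype and library type. Tests were two-sided with Benjamini-Hochberg adjustment over all genes. Count tests on recovered reads (edgeR, DESeq2 1.42.0), other scalings, filters and pseudocounts, left-out libraries, replicate blocks and removal of a GC or length trend (local regression, span 0.3) were alternatives. The models were tested on simulated data. R 4.3.3 and Python 3.11.15 were used.

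Input and RPF of a lysate came from the same tube per the protocol. The main TE test did not use this pairing, and the lysate served as a block in alternative fits only. Deviations of paired input and RPF libraries correlated at -0.016 and 0.053. Coding sequence, GC content and start codons came from canonical GENCODE 44 transcripts, which covered all 32 genes. The members and lists were chosen with earlier results of these data known. Named genes were METTL5, the 32 members and, of the other pathway genes, the 4 largest rises and falls among those called per readout, of which those that carry the results are described and some are not reported here.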

Additional observations from a re-analysis of the deposited data

How the results depend on the processing

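Of 22 called changes of single genes, 12 kept their call under every alternative other than leaving out a library. Over these alternatives 254 values were computed, of which 232 stayed called, 22 lost the call and 0 changed direction. The number of called members in input, 5, became 3 with limma on the TE table, and the number in RPF, 14, became 9 with limma without the variance trend. The number in TE, 3, became 0 with the GC trend removed, with or without the lysate as a replicate block, 0 with limma without the trend and 1 with quantile normalization. Where a call needed a change of 2-fold or more and an unadjusted p-value below 0.05, 0 members were called in input, 1 in RPF and 0 in TE. The causes were not tested. Without single libraries the counts ranged from 2 to 13 in input, from 10 to 12 in RPF and from 0 to 0 in TE. The fit in which the lysate was the replicate block called 4 members in TE, adding HADH, and a replicate block on the number alone left 5 called members in input and 14 in RPF and gave 4 in TE. Deviations of METTL5-WT and METTL5-KO libraries of the same number correlated at 0.039 in input and -0.002 in RPF. Those of input and RPF from the same lysate were also low (-0.016 and 0.053). This check thus missed a known pairing and could not decide whether the number marks a shared batch.

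The mitochondrial RPF median, 0.28, was 0.32 with the GC trend removed and 0.26 to 0.37 without single libraries. The mitochondrial TE median, 0.17, was 0.13 with quantile normalization and 0.12 to 0.23 without single libraries. The mitochondrial input median was 0.03 to 0.06 and the peroxisomal input median -0.11 to 0.17 without single libraries. The peroxisomal RPF median, 0.31, was 0.20 to 0.59 without single libraries. The peroxisomal TE median, 0.45, was 0.27 after removal of the GC trend, with or without the lysate block, 0.37 with a pseudocount of 5, 0.35 with edgeR, 0.37 with DESeq2, 0.30 with quantile normalization, 0.48 with libraries centred, 0.50 with the length trend removed and 0.24 to 0.55 without single libraries. Depth limited ACSL5, EHHADH and PPARA, whose RPF reads per library did not exceed 26.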

Other observations

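Of the 71 further pathway genes, 13 were not tested in RPF, and 12 of these had at most 5 input counts in each library. Among them were several genes known from liver, named here after their values were seen. FABP1, the fatty acid binding protein of liver, CYP4A11, a fatty acid hydroxylase, and CREB3L3, a regulator of fasting genes in liver, had 0 input counts in each of the 4 input libraries. PLIN2, the coat protein of lipid droplets, had 0 in both METTL5-WT libraries and 0 and 1 in METTL5-KO.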
